A study of Mus musculus with 30 samples.

Results

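Epcam-positive cells of mouse embryos that did not bind the antibody ENDM1 were compared with endoderm made in culture from mouse embryonic stem (ES) cells. The comparison holds 6 of the 30 arrays of the series, 3 per group, picked by the titles of the samples. The ENDM1-negative cells were sorted from Swiss webster embryos of stage E8.25 as Epcam+/ENDM1neg. The ES cells, of strain C57BL/6x129SvJae, were differentiated for 5 days and sorted as ckit+/Sox2dim (called ES day 5 here). A further 3 arrays of foregut cells, taken from embryos of the same strain and stage with the gate ENDM1+/Epcam+/SSlo, served to tell differences held by both embryo populations from those of a single one. The labels state that each group had 3 biological replicates. They also state that embryo RNA came from the RNeasy Micro kit and ES RNA from the miRNeasy Mini kit, and that all of these samples went through the same Pico amplification and Encore biotin labelling. Strain, kit, sorting gate and growth in an embryo or a dish therefore change together between ENDM1-negative and ES day 5 cells and cannot be told apart. Both embryo populations were sorted for Epcam, an adhesion protein of epithelia, so neither represents the entire embryo.

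At this stage of mouse development the germ layers have formed and the definitive endoderm is folding into a gut tube, with the foregut at its front. The ectoderm gives rise to the neural plate, the neural crest and the surface ectoderm that will cover the body. Mesoderm forms somites, heart, the first blood vessels and embryonic red cells. In culture, ES cells reach endoderm under Nodal or activin signalling through a state that resembles the primitive streak, the region of the embryo through which mesoderm and endoderm arise.

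The values are log2 array intensities, and a difference of 1 is a 2-fold change. Array medians of the 12 amplified arrays lay between 5.69 and 5.74. Pairs of ENDM1-negative arrays correlated across genes at 0.992 to 0.994, ENDM1-negative with foregut arrays at 0.983 to 0.987, and ENDM1-negative with ES day 5 arrays at 0.969 to 0.974. Correlations across genes describe the arrays and carry no test. ES day 5 replicate 1 stood apart: its deviations from the group mean had an SD of 0.191, against 0.142 and 0.138 for the other ES day 5 arrays. Marker genes were read as above or below the array median. All 4 endothelial markers were above it in ENDM1-negative cells and 0 in ES day 5 cells. For surface ectoderm the count was 5 of 5 in ENDM1-negative cells and 2 in ES day 5 cells, and for endoderm 7 of 8 in ENDM1-negative cells and 8 in ES day 5 cells. Each of the groups had markers of further types above the median: for neural plate 5 of 6 in ENDM1-negative cells, 4 in foregut and 4 in ES day 5 cells, and for blood 3 of 4, 4 and 0. In such bulk RNA fewer cells of a type and less RNA per cell cannot be told apart. Epcam, Kit and Sox2 were used for sorting and are no findings. Epcam stood at 9.10, 9.11 and 9.11 in ENDM1-negative cells and 9.22, 8.92 and 8.80 in ES day 5 cells, and the difference of 0.13 ± 0.10 (SE) was not called. Kit differed by -0.10 ± 0.29 and was not called. Without ES day 5 replicate 1 both were called higher, Epcam at 0.25 (adjusted p = 0.0429) and Kit at 0.39 (adjusted p = 0.0278). Sox2 differed by 0.81 ± 0.23, a call that was lost without ENDM1-negative replicate 1 (adjusted p = 0.081), and it was 0.44 without ES day 5 replicate 1.

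Across 19938 genes, limma called 5236 (26.3%) different between ENDM1-negative and ES day 5 cells at a Benjamini-Hochberg adjusted p under 0.05. Of these, 3290 (16.5% of all genes) were higher and 1946 (9.76%) lower in ENDM1-negative cells, and the median over all genes was 0.06. The share of calls that were higher, 62.8%, was 53.7% after quantile normalization and 56.5% with every array shifted to the same median. A change of at least 2-fold was called for 654 genes (3.28%), 276 higher (1.38%) and 378 lower (1.9%). The scatter plot of mean levels shows the calls on both sides of the line of equal levels. The arrays of the groups did not overlap for 7805 genes (39.1%). For scale, foregut against the same ES day 5 arrays gave 2939 genes higher (14.7%) and 1878 lower (9.42%), 611 of them at least 2-fold (3.06%; 1.27% higher and 1.8% lower). The direct comparison of ENDM1-negative with foregut cells gave 883 higher (4.43%) and 740 lower (3.71%), 1623 in all (8.14%), of which 0.547% of all genes were at least 2-fold higher and 0.787% at least 2-fold lower. This total was 985 without foregut replicate 1 and 1069 without ENDM1-negative replicate 1. That share also depended on scaling in these comparisons: with every array shifted to the same median it was 45.1% in place of 61% for foregut against ES day 5 and 64.4% in place of 54.4% for ENDM1-negative against foregut.

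**Figure D1:**
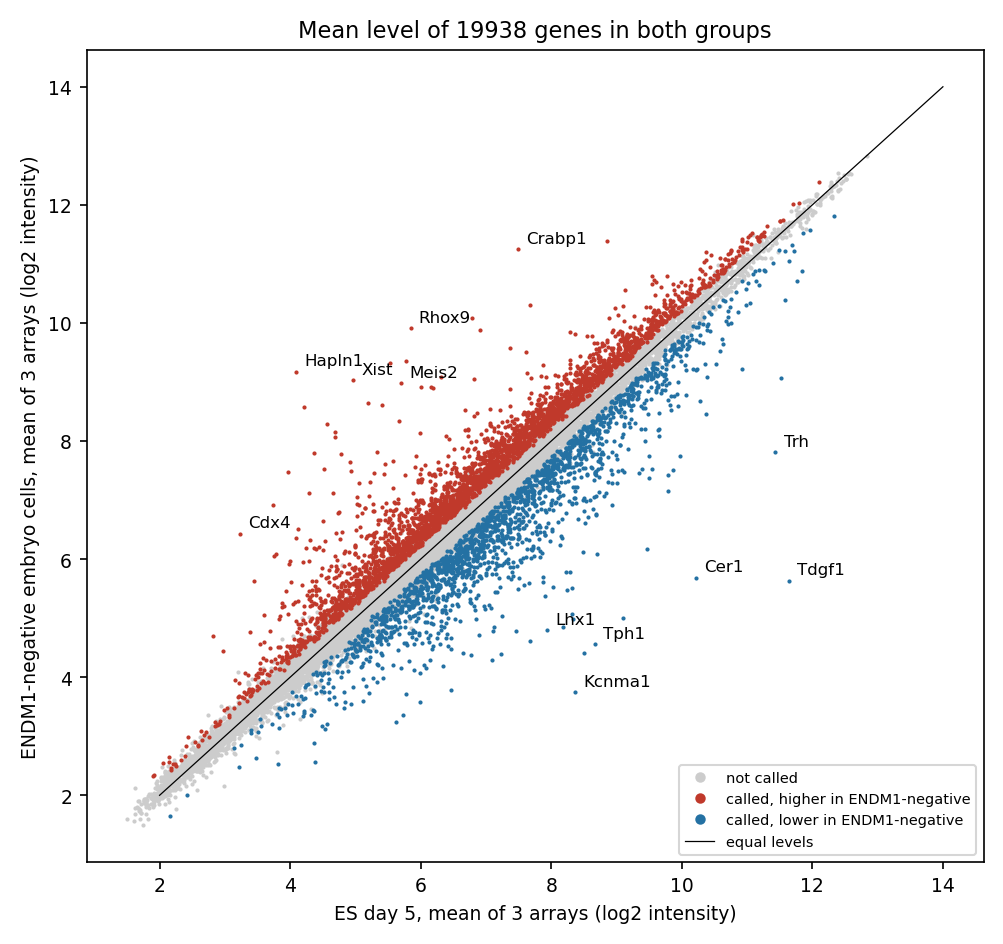
Mean log2 intensity of each of 19938 genes over the 3 ENDM1-negative arrays (vertical axis) against the mean over the 3 ES day 5 arrays (horizontal axis), with called genes coloured by direction. Tdgf1, Cer1, Trh and Kcnma1 lie far below the line of equal levels, Hapln1, Xist, Rhox9 and Meis2 far above it.

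The higher and the lower genes were next set against foregut. Of the 276 genes at least 2-fold higher than in ES day 5 cells, 143 (51.8%) were also called higher than in foregut in the direct comparison and 7 were called lower. Of the 378 genes at least 2-fold lower, 87 (23%) were called below foregut, 9 above it, and 282 (74.6%) were not called. A missing call does not show equality. By another measure, that the 95% interval of the ENDM1-negative minus foregut difference lay between -1 and 1, 143 of the higher genes (51.8%) and 258 of the lower genes (68.3%) met it, beside 96.3% of all genes. This group and the called one are not exclusive: 63 genes, 39 higher and 24 lower, had such an interval and were also called in the direct comparison, and 70 had neither. The ENDM1-negative arrays enter both comparisons, so these counts are a description without a test.

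Hapln1, which links hyaluronan to proteoglycans in the extracellular matrix, had the largest rise. It read 8.94, 9.09 and 9.50 on the ENDM1-negative arrays, 6.01, 5.63 and 5.51 on the foregut arrays and 3.90, 4.07 and 4.31 on the ES day 5 arrays, a difference from ES day 5 of 5.08 ± 0.18 (SE, n = 3 arrays per group, adjusted p = 3.97e-09). The 3 groups did not overlap, and ENDM1-negative cells also exceeded foregut by 3.46 ± 0.18 (adjusted p = 5.78e-07). Crabp1, which binds retinoic acid in the cytoplasm, read 11.15, 11.18 and 11.43 in ENDM1-negative cells, 9.56, 9.01 and 9.74 in foregut and 6.89, 7.65 and 7.93 in ES day 5 cells, again in 3 separate steps. Ptn, a secreted growth factor of the developing nervous system, rose by 3.58 ± 0.13 and was above foregut by 1.48 ± 0.13. Ctla2a and Rhox9, both members of families with near-identical copies whose probe sets may share signal, rose by 4.36 ± 0.26 and 4.07 ± 0.28. Among the other large rises, Tmem54, a membrane protein, was up by 3.79 ± 0.23, and foregut cells stood 3.08 ± 0.23 above ES day 5 as well. Sema3a, a secreted guidance cue for axons and vessels, rose by 2.78 ± 0.20 and had one of the widest gaps to foregut, 2.97 ± 0.20.

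Tdgf1, the Nodal co-receptor Cripto, had the largest fall. Its levels were 6.66, 5.34 and 4.91 in ENDM1-negative cells, 6.06, 5.25 and 4.86 in foregut and 10.99, 11.98 and 11.95 in ES day 5 cells. The embryo arrays overlapped each other and lay far below every ES day 5 array, with a difference of -6.01 ± 0.41 for ENDM1-negative cells (adjusted p = 8.64e-07) and -6.25 ± 0.41 for foregut. Kcnma1, a calcium-activated potassium channel, averaged 3.74 ± 0.53 in ENDM1-negative cells and 8.37 ± 0.10 in ES day 5 cells (SD, n = 3 each), a difference of -4.62 ± 0.28. Tph1, the first enzyme of serotonin synthesis, differed by -4.11 ± 0.24, Alx1, a homeobox factor of head mesenchyme, by -3.24 ± 0.26, and Gckr, the regulator of glucokinase, by -3.32 ± 0.33. Each of them was also lower in foregut than in ES day 5 cells, by -3.20 ± 0.24, -3.15 ± 0.26 and -2.49 ± 0.33. Samd3 and the phospholipid flippase Atp8a1 changed by -4.10 ± 0.27 and -3.29 ± 0.17. Pga5, a pepsinogen with close copies in its family, read 4.61, 5.18 and 5.21 in ENDM1-negative cells and 10.39, 8.34 and 8.55 in ES day 5 cells, where replicate 1 was the highest.

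**Figure D2:**
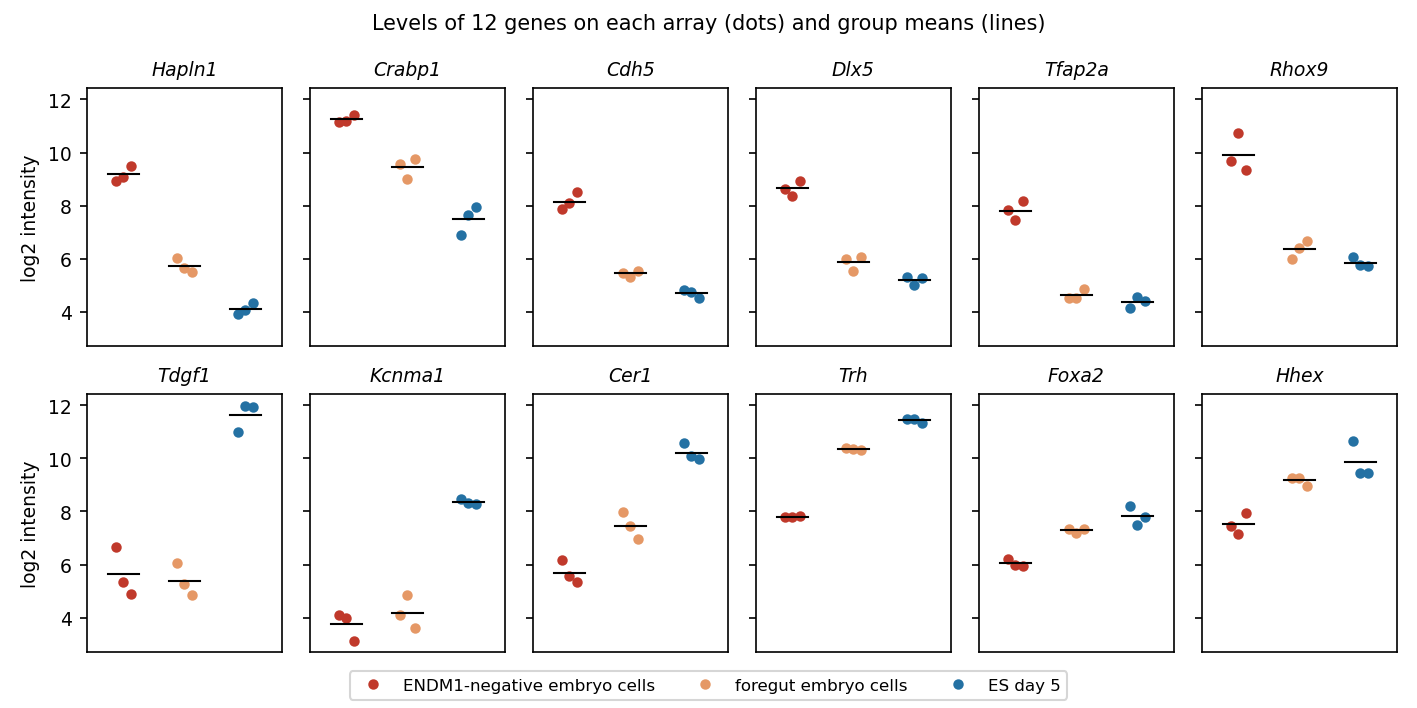
Log2 intensity of 12 genes on each array (dots) with the mean of each group (lines), for ENDM1-negative embryo cells, foregut embryo cells and ES day 5 cells. Among these groups Hapln1, Cdh5, Dlx5, Tfap2a and Rhox9 are highest in ENDM1-negative cells, Tdgf1 and Kcnma1 are low in both embryo populations, and Trh and Foxa2 are lowest in ENDM1-negative cells.

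Genes alike in both embryo populations were taken as those called against ES day 5 whose 95% interval of the ENDM1-negative minus foregut difference lay between -0.5 and 0.5. That interval chose them and is given as a description. None of those named here was called in the direct comparison. Meis2, a homeobox partner of Hox and Pbx proteins, led the rises at 9.01, 8.79 and 9.14 in ENDM1-negative cells, 8.90, 8.98 and 8.97 in foregut and 5.54, 5.88 and 5.68 in ES day 5 cells. All 6 embryo arrays lay within a narrow band well above ES day 5, and the difference was 3.28 ± 0.11 (adjusted p = 3.25e-09). Cdx4, a homeobox activator of posterior Hox genes, read 6.31, 6.24 and 6.73 in ENDM1-negative cells and 3.38, 3.10 and 3.22 in ES day 5 cells. Its difference was 3.20 ± 0.13 (adjusted p = 1.54e-08), and foregut arrays read 6.12, 6.43 and 6.13. Cxcl12, the ligand of the chemokine receptor Cxcr4, rose by 2.17 ± 0.14, the tyrosine kinase Frk by 1.65 ± 0.11 and the small membrane protein Smim3 by 1.69 ± 0.14. On the lower side, Vwa5a read 5.52, 5.34 and 5.59 in ENDM1-negative cells, 5.63, 5.79 and 5.20 in foregut and 8.27, 8.30 and 8.16 in ES day 5 cells. Ell2, a transcription elongation factor, fell by 2.12 ± 0.09, Fgl1, a secreted protein related to fibrinogen, by 2.17 ± 0.17 and Lrig3, a membrane protein with leucine-rich repeats, by 1.86 ± 0.17. Txnip, which binds thioredoxin and restrains glucose uptake, read 8.34, 8.34 and 8.69 in ENDM1-negative cells and 10.22, 10.42 and 10.47 in ES day 5 cells, and Acta2, smooth muscle actin, 5.64, 5.37 and 5.47 and 7.19, 7.75 and 7.55.

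**Figure D3:**
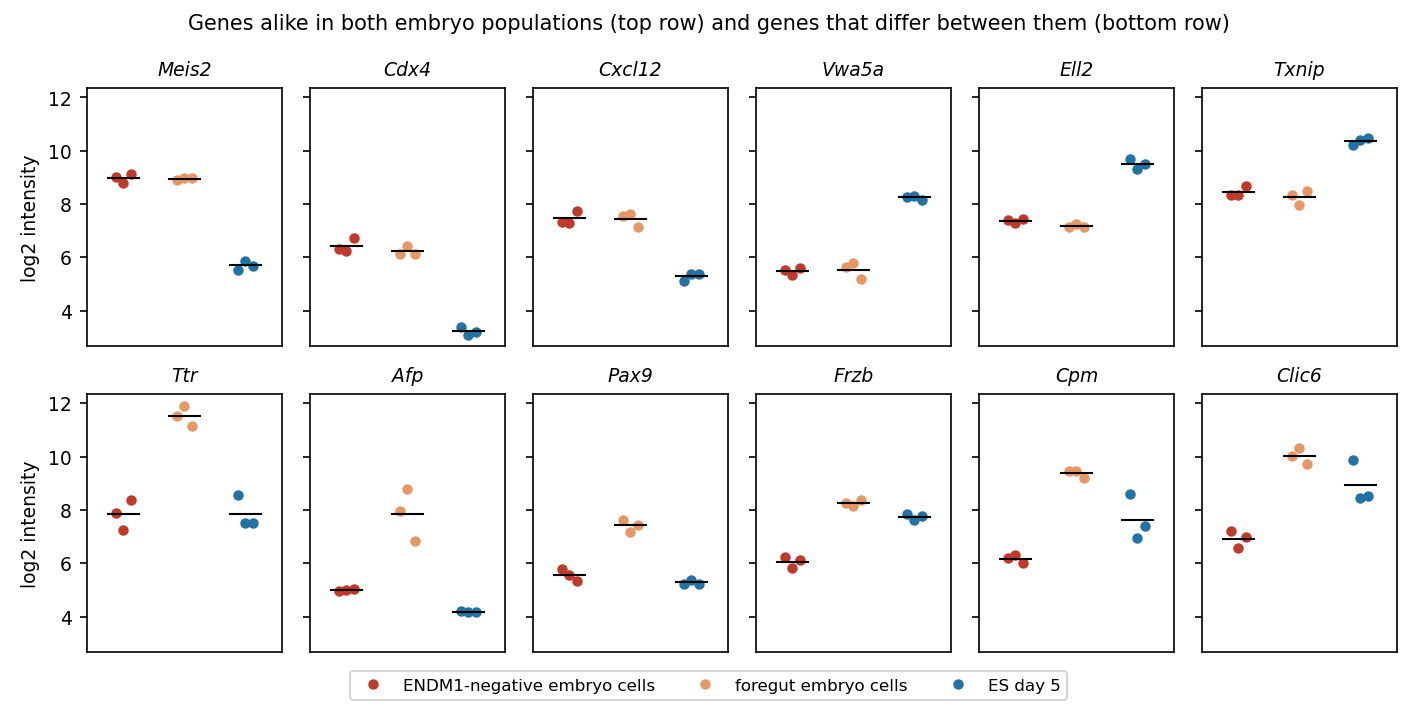
Log2 intensity of 12 genes on each array (dots) with group means (lines), for ENDM1-negative embryo cells, foregut embryo cells and ES day 5 cells. In the top row both embryo populations stand together and apart from ES day 5, and in the bottom row the foregut arrays stand above the ENDM1-negative arrays.

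Gene lists for cell types, pathways and families were read by how many measured members were called in each direction, beside 16.5% higher and 9.76% lower over all genes. The lists were chosen with earlier results of these data known, so a count describes the list and is no independent test. Counts also depended on the alternatives to the main processing, of which one left out genes under the median level and so tested fewer members. With the least difference of 1 set aside, higher calls ranged from 3 to 9 for trophoblast and from 5 to 13 for surface ectoderm. For neural crest they ranged from 1 to 5, and for blood from 2 to 8. The bar plot of called members sets the lists side by side: endothelium, trophoblast, Hox and Wnt target genes reach furthest to the right, transcription factors and secreted products of endoderm furthest to the left.

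**Figure D4:**
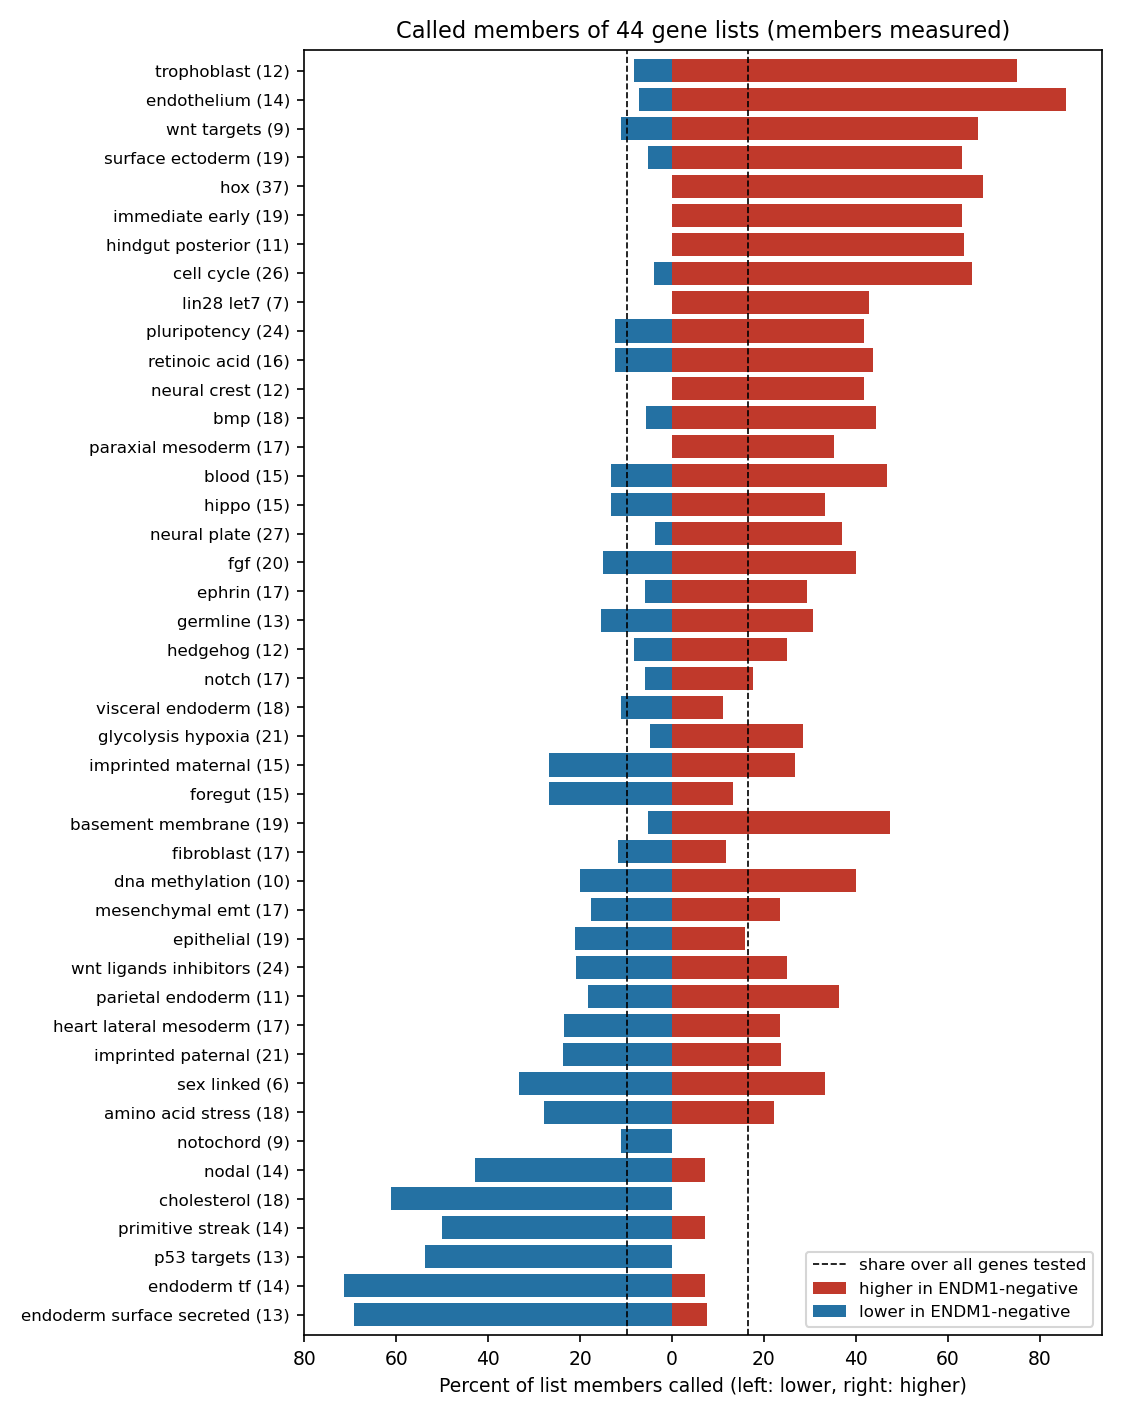
Percent of the measured members of 44 gene lists called against ES day 5, lower in ENDM1-negative cells to the left and higher to the right, ordered by median difference with the number of measured members in brackets. Dashed lines mark the shares over all genes tested, 9.76% lower and 16.5% higher.

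Most Hox genes, which set position along the body axis, were higher in both embryo populations. Of 37 measured, 25 were called higher in ENDM1-negative cells and 0 lower, with a median difference of 0.52, and in foregut 21 were higher and 0 lower (median 0.42). Hoxc8 read 5.93, 6.12 and 6.52 in ENDM1-negative cells and 4.58, 4.19 and 4.34 in ES day 5 cells, a difference of 1.82 ± 0.15 (adjusted p = 2.91e-06). Hoxa5 and Hoxd9 differed by 1.76 ± 0.19 and 1.66 ± 0.13. Genes at the 3' end of the clusters took part, with Hoxa2 at 1.20 ± 0.14 and Hoxb2 at 1.29 ± 0.11, while the most 5' genes Hoxa13, Hoxb13, Hoxc13 and Hoxd13 differed by 0.32 ± 0.11, 0.10 ± 0.08, 0.06 ± 0.10 and 0.11 ± 0.12 and were not called. In the direct comparison 6 Hox genes were called above foregut, among them Hoxb2 at 0.65 ± 0.11, but without ENDM1-negative replicate 3 the count was 1. Most Hox genes read under the array median in ES day 5 cells. The mean level of the list was under the array median of 5.72 in both embryo populations too. Per array it ranged from 5.44 to 5.58 in ENDM1-negative cells, from 5.23 to 5.40 in foregut and from 4.83 to 4.86 in ES day 5 cells. The 25 higher calls ranged from 6 to 26 over the alternatives given for the lists above. The ParaHox and other posterior factors moved likewise: 7 of 11 were higher and 0 lower, with Cdx2 at 1.70 ± 0.15 and the ligand Fgf17 at 0.79 ± 0.13 beside Cdx4.

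**Figure D5:**
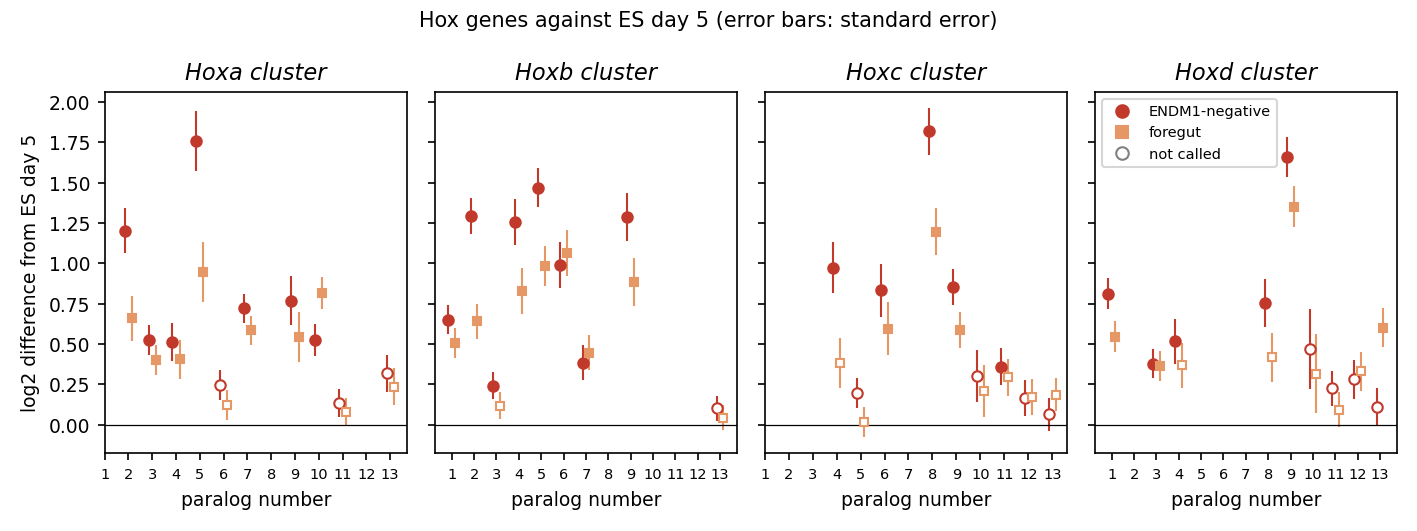
Log2 difference from ES day 5 of the measured Hox genes by cluster and paralog number, for ENDM1-negative cells (circles) and foregut cells (squares), with standard errors as bars and open symbols where the gene was not called. Differences are larger in the middle of the clusters than at paralog 13, where Hoxd13 in foregut is the single call.

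Most cell cycle and immediate early genes were called higher in ENDM1-negative cells. Of 26 genes of the cell cycle and DNA replication, 17 were higher and 1 lower, with a median of 0.44. In foregut 13 of them were higher and 1 lower than in ES day 5 cells. The direct comparison called 7 above foregut and 1 below it. Ccne1, the cyclin that drives entry into DNA synthesis, read 8.85, 8.81 and 8.96 in ENDM1-negative cells, 8.53, 8.45 and 8.46 in foregut and 7.34, 7.33 and 7.43 in ES day 5 cells. Its arrays did not overlap between the groups, and the difference from ES day 5 was 1.51 ± 0.08 (adjusted p = 9.64e-08). All 6 measured subunits of the Mcm helicase, which unwinds DNA at replication forks, were higher, from 0.59 ± 0.08 for Mcm6 to 0.91 ± 0.08 for Mcm5, while Mki67 and Top2a differed by 0.14 ± 0.10 and -0.09 ± 0.10 and were not called. Cdkn1b, an inhibitor of cyclin-dependent kinases, was the single fall at -0.79 ± 0.17. The Mcm genes, Mki67 and Top2a were picked out after their values were seen. Of 19 immediate early and heat shock genes, which respond within minutes to growth factors, stress and handling of tissue, 12 were higher and 0 lower in ENDM1-negative cells, and the counts in foregut were 12 and 0. Fosb read 7.53, 8.04 and 7.45 in ENDM1-negative cells and 5.52, 5.59 and 5.63 in ES day 5 cells, a difference of 2.09 ± 0.13, and Egr2 and Fos differed by 1.62 ± 0.14 and 1.55 ± 0.15. The part of handling in these counts was not tested.

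Several p53 targets and genes of cholesterol synthesis were lower in both embryo populations. Of 13 p53 targets 7 were lower and 0 higher in ENDM1-negative cells, with a median of -0.49, and 9 were lower in foregut. Trp53inp1, a stress protein that promotes cell death, read 7.56, 7.66 and 7.36 in ENDM1-negative cells, 7.91, 7.87 and 7.37 in foregut and 9.21, 9.71 and 9.72 in ES day 5 cells. The embryo arrays lay together below ES day 5 by 2.02 ± 0.16 (adjusted p = 2.84e-06). Polk, a DNA polymerase that passes damaged bases, and the receptor Eda2r differed by -1.47 ± 0.14 and -1.43 ± 0.29. Cholesterol genes were lower in 11 of 18 cases and higher in 0 (median -0.38), and lower in 10 in foregut. The first count dropped to 7 without ENDM1-negative replicate 1 and to 7 without ES day 5 replicate 1. Msmo1, a sterol methyl oxidase, read 7.40, 7.75 and 7.33 in ENDM1-negative cells and 9.40, 8.72 and 8.96 in ES day 5 cells, a difference of -1.53 ± 0.15. Hmgcs1, which makes HMG-CoA from acetyl groups, and Cyp51, the lanosterol demethylase, differed by -1.21 ± 0.11 and -1.11 ± 0.12.

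The promoters of these 3 genes are shown because they had the largest falls among members with a listed promoter, 1 chromosome left out. The known activators of the list, the SREBP factors with their partner NF-Y, bind short motifs near the start of transcription. Each window runs from 250 bases before to 50 bases after the annotated start (RefSeq, GRCm38.p6), 5' to 3' on the strand of the gene. Capitals mark CCAAT, the motif of NF-Y, which reads ATTGG on the other strand, and TCACNCCAC, a sterol regulatory element, which reads GTGGNGTGA there.
Msmo1, chr8:64733529-64733828, minus strand: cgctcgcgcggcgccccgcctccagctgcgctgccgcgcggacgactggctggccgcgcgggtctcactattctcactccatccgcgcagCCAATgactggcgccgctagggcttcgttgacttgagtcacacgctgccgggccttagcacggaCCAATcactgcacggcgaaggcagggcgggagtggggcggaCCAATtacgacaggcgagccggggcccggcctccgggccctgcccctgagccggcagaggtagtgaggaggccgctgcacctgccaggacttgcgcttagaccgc
Hmgcs1, chr13:119690101-119690400, plus strand: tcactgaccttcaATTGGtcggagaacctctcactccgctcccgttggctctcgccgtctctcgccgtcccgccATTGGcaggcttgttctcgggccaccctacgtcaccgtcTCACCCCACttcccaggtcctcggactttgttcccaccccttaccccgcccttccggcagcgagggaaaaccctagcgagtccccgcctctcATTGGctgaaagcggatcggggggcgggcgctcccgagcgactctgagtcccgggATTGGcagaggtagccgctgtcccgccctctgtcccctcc
Cyp51, chr5:4104648-4104947, minus strand: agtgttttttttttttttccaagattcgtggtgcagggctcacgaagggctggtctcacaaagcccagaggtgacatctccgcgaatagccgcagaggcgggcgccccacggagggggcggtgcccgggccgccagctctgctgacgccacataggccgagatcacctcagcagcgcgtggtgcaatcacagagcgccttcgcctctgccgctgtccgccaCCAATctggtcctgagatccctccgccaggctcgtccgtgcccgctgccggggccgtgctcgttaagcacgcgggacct
CCAAT on either strand stood in the promoters of 13 of the 14 cholesterol genes with a listed promoter, beside 37.9% of 27025 promoters. TCACNCCAC stood in 1 of 14, that of Hmgcs1, beside 1.22% of all. GGGGCGGGG, the motif of Sp1, which reads CCCCGCCCC on the other strand, stood in 2 of 14 and 11.6%. None of these motifs contains another. A match describes the letters of a window and is no evidence of binding.

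Several primitive streak and Nodal signalling genes were lower in both embryo populations. Of 14 streak genes, 7 were lower in ENDM1-negative cells and 1 higher (Sp5; 2 without ENDM1-negative replicate 2), and in foregut 8 were lower. Lhx1, a homeobox factor of the streak and anterior mesendoderm, read 4.85, 4.91 and 4.62 in ENDM1-negative cells, 4.91, 4.95 and 4.89 in foregut and 8.65, 7.51 and 7.63 in ES day 5 cells. Both embryo populations overlapped and lay below ES day 5, by 3.13 ± 0.22 in ENDM1-negative cells (adjusted p = 1.39e-06). Fgf5, a growth factor of the early epiblast, fell by 2.36 ± 0.21, Otx2, a factor of epiblast and anterior head, by 1.70 ± 0.19, and Cyp26a1, which breaks down retinoic acid, by 1.70 ± 0.19. Eomes, a T-box factor needed for endoderm, read 7.09, 7.11 and 6.13 in ENDM1-negative cells, 5.65, 5.14 and 5.07 in foregut and 8.57, 8.07 and 8.06 in ES day 5 cells. The ENDM1-negative arrays lay between the others, 1.49 ± 0.25 above foregut (adjusted p = 0.00293). In the Nodal list 6 of 14 genes were lower in ENDM1-negative cells and 1 higher (0 without ENDM1-negative replicate 1 or 3 or ES day 5 replicate 1 or 3, 2 without ENDM1-negative replicate 2), and in foregut 8 were lower and 2 higher (1 without foregut replicate 1). The ligand Nodal itself differed by -0.81 ± 0.11, the co-receptor Cfc1 by -2.44 ± 0.13 and the feedback inhibitors Lefty1 and Lefty2 by -2.53 ± 0.23 and -1.34 ± 0.27, with -2.48 ± 0.23 and -1.48 ± 0.27 in foregut for the inhibitors. Smad2 and Smad3, which carry the signal to the nucleus, differed by -0.12 ± 0.13 and 0.22 ± 0.08 and were not called. These genes were named after their values were seen where they are not among the largest of their list.

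The array held probe sets for 296 microRNA genes, of which 8 were called higher (2.7%) and 26 lower (8.78%) in ENDM1-negative cells, beside 16.5% and 9.76% over all genes, and 215 stood under the array median in both groups. A probe set reads the hairpin gene, not its mature arms. Mir363 was among the 12 largest falls of all genes, at 5.41, 4.27 and 5.28 in ENDM1-negative cells, 2.64, 3.36 and 3.62 in foregut and 7.08, 9.23 and 8.69 in ES day 5 cells (difference -3.34 ± 0.46, adjusted p = 0.00018). The groups did not overlap, with the foregut arrays lowest. Its neighbours and the cluster of Mir302 genes were looked up after this value was seen. In the Mir302 cluster on chromosome 3, 4 of 5 genes were lower, Mir302a at -2.37 (adjusted p = 1.03e-06), Mir367 at -2.06, Mir302d at -1.11 and Mir302c at -1.08 (adjusted p = 0.0365), while Mir302b at -0.26 was not called. In the Mir363 cluster on chromosome X, 3 of 5 were lower, with Mir19b-2 at -0.77 and Mir20b at -0.66 beside Mir363, while Mir106a at -0.57 and Mir92-2 at -0.13 were not called. Mir19b-2 (3.43 in ENDM1-negative and 4.21 in ES day 5 cells) and Mir20b (3.39 and 4.05) stood under the array median of 5.72 in both groups. Mir302a (3.36 and 5.73) and Mir367 (3.71 and 5.77) barely reached it in ES day 5 cells. Embryo and ES RNA came from different kits, and the part of the kit in these microRNA counts was not tested. The mature sequences of 4 of these genes (RefSeq, GRCm38.p6) are given to show which share a seed, bases 2 to 8, in capitals, by which a microRNA pairs with its targets.
mmu-miR-302c-3p, chr3:127545406-127545427, plus strand: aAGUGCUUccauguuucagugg
mmu-miR-302d-3p, chr3:127545665-127545687, plus strand: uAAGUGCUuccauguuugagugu
mmu-miR-367-3p, chr3:127545779-127545800, plus strand: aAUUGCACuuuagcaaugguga
mmu-miR-363-3p, chrX:52741697-52741718, minus strand: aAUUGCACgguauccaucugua
The lower genes of both clusters thus include a pair with the seed AUUGCAC, Mir367 on chromosome 3 and Mir363 on chromosome X. The letters AAGUGCU begin at base 2 of miR-302d-3p and at base 1 of miR-302c-3p as annotated.

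Most surface ectoderm genes and some neural crest genes were higher in ENDM1-negative cells. Of 19 surface ectoderm and placode genes, 12 were higher and 1 lower than in ES day 5 cells, and 9 were called above foregut. Dlx5, a homeobox factor of the border between neural plate and surface ectoderm, read 8.64, 8.37 and 8.93 in ENDM1-negative cells, 6.00, 5.52 and 6.07 in foregut and 5.30, 4.99 and 5.28 in ES day 5 cells. The ENDM1-negative arrays were apart from both others, 3.46 ± 0.16 above ES day 5 (adjusted p = 3.61e-08) and 2.78 ± 0.16 above foregut (adjusted p = 1.09e-06). Its neighbour Dlx6 rose by 1.67 ± 0.19. Trp63 and Krt5, the p53 relative and the keratin that define stratified epithelia, rose by 1.16 ± 0.11 and 0.98 ± 0.10, and Grhl3, a factor of epidermis and neural tube closure, by 1.10 ± 0.16. Krt14, at 0.10 ± 0.09, was not called. Perp, a junction protein and p53 target, was the single fall at -0.74 ± 0.15. In the neural crest list 5 of 12 genes were higher, 0 lower, and 7 stood above foregut. Tfap2a, an AP-2 factor of both tissues, read 7.82, 7.44 and 8.16 in ENDM1-negative cells, 4.50, 4.50 and 4.86 in foregut and 4.14, 4.54 and 4.41 in ES day 5 cells. Foregut and ES day 5 arrays overlapped, and ENDM1-negative cells were 3.44 ± 0.17 above ES day 5. Tfap2b and Pax3, a paired box factor of dorsal neural tube and somites, rose by 1.28 ± 0.13 and 1.22 ± 0.09. Sox10 and Foxd3, which define migrating crest, differed by 0.04 ± 0.10 and 0.04 ± 0.10 and were not called.

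Neural plate genes showed a smaller shift. Of 27 genes 10 were higher and 1 lower (0 without ENDM1-negative replicate 2, 2 without foregut replicate 1), with a median of 0.23. Pax6, a paired box factor of eye, forebrain and spinal cord, read 6.69, 6.93 and 7.56 in ENDM1-negative cells, 4.91, 4.89 and 5.24 in foregut and 5.13, 4.91 and 5.01 in ES day 5 cells. It was 2.04 ± 0.18 above ES day 5 and 2.04 ± 0.18 above foregut, and foregut and ES day 5 arrays overlapped. Sox1, Zic1 and Irx3, all neural plate markers, differed by 0.13 ± 0.11, 0.28 ± 0.17 and 0.53 ± 0.19 and were not called. In the list for presomitic and somite mesoderm 6 of 17 genes were higher and 0 lower, led by the forkhead factor Foxc2 at 1.48 ± 0.18. The higher count was 4 or 5 when any 1 array was left out, and 1 was lower without ES day 5 replicate 1. Over the alternatives given for the lists above the higher count ranged from 2 to 6. Tbx6 and Msgn1, which define presomitic mesoderm, differed by 0.10 ± 0.13 and 0.27 ± 0.10 and were not called. Heart and lateral mesoderm genes split into 4 higher, such as Mef2c at 1.05 ± 0.16, and 4 lower, such as Tbx20 at -1.89 ± 0.21, of 17. Of 9 notochord and node genes 1 was lower, Dynlrb2, a dynein light chain, at -1.67 ± 0.28, and 0 were higher, with 2 lower without ENDM1-negative replicate 1.

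Endothelial genes gave the highest share of calls. Of 14 genes 12 were higher and 1 lower in ENDM1-negative cells, with a median of 0.85, and 8 were called above foregut. The first count stayed at 12 when any 1 array was left out, but ranged from 0 to 13 over the processing alternatives. Cdh5, the cadherin of endothelial junctions, read 7.86, 8.09 and 8.50 in ENDM1-negative cells, 5.47, 5.33 and 5.53 in foregut and 4.82, 4.73 and 4.51 in ES day 5 cells. ENDM1-negative cells stood 3.46 ± 0.14 above ES day 5 (adjusted p = 1.55e-08) and 2.71 ± 0.14 above foregut (adjusted p = 5.78e-07). The receptors Tek, for angiopoietins, and Kdr, for VEGF, rose by 2.40 ± 0.18 and 2.13 ± 0.16, the surface sialomucin Emcn by 2.18 ± 0.23 and the ETS factor Fli1 by 2.08 ± 0.16. Emcn read 4.97, 5.70 and 6.21 in ENDM1-negative cells, 3.35, 3.45 and 3.63 in foregut and 3.53, 3.54 and 3.27 in ES day 5 cells. ENDM1-negative replicate 3 was the highest array and replicate 1 the lowest of its group for Emcn, and likewise for Cdh5, Kdr, Tek and Fli1. Flt1, the other VEGF receptor, was the exception at -1.46 ± 0.33, or -0.95 without ES day 5 replicate 1. Of the 4 defining endothelial markers (Kdr, Pecam1, Cdh5 and Tek) the mean level per array ranged from 6.59 to 7.19 in ENDM1-negative cells, from 5 to 5.17 in foregut and from 4.44 to 4.59 in ES day 5 cells, with Epcam as the gate. The part of sorting in this was not tested. Embryonic blood genes were higher in 7 of 15 cases and lower in 2. Without ENDM1-negative replicate 3 the first count was 4, and without ENDM1-negative replicate 1 or ES day 5 replicate 1 the second was 1. Hbb-bh1, an embryonic globin in a family of near-identical copies, read 7.06, 7.55 and 7.82 in ENDM1-negative cells, 7.84, 8.19 and 8.20 in foregut and 4.08, 3.89 and 3.95 in ES day 5 cells, so both embryo populations were high. Hba-x, embryonic alpha globin, read 6.98, 7.86 and 7.49 in ENDM1-negative cells, 7.96, 8.40 and 8.23 in foregut and 5.87, 5.41 and 5.05 in ES day 5 cells.

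Most genes of a list for the trophoblast, the outer layer that builds the placenta, were higher in ENDM1-negative than in ES day 5 cells. Of 12 measured, 9 were higher and 1 lower than in ES day 5 cells (median 0.98), and 6 were called above foregut. Rhox9 read 9.66, 10.72 and 9.35 in ENDM1-negative cells, 5.97, 6.41 and 6.66 in foregut and 6.05, 5.76 and 5.73 in ES day 5 cells, and foregut and ES day 5 arrays overlapped. Undifferentiated ES cells (ES day 0), which entered the fit, also read high, at 9.10, 8.91 and 8.83, so the gene was not high in ENDM1-negative cells alone. Its relative Rhox6 rose by 3.28 ± 0.28 and read 8.59, 8.84 and 8.43 in ES day 0 cells, and signal may be shared between these 2 X-linked homeobox genes. Elf5, a factor of trophoblast stem cells, read 7.12, 7.20 and 6.27 in ENDM1-negative cells, 5.13, 5.07 and 5.11 in foregut and 5.35, 5.06 and 5.04 in ES day 5 cells, a difference of 1.71 ± 0.19 (adjusted p = 3.38e-05). Plac1, a placental surface protein, rose by 2.46 ± 0.42 with replicate 2 far above the others, at 6.30, 8.50 and 6.54 in ENDM1-negative cells. Tfap2c and Hand1, which other tissues use too, rose by 1.48 ± 0.16 and 0.92 ± 0.13, and Tfap2c read 5.99, 6.34 and 6.17 in ES day 0 cells. Tpbpa, which defines the spongiotrophoblast, was lower at -0.74 ± 0.17, and Psg17 at -0.04 ± 0.08 was not called. Both stood under 4 on every array of these groups, far below the array median.

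Most endoderm transcription factors were lower in ENDM1-negative cells than in ES day 5 cells. Of 14 endoderm transcription factors 10 were lower, with a median of -0.93, and 1 was higher, Sox7 at 0.55. In foregut 5 were lower and 1 higher. The direct comparison called 7 below foregut and 2 above it. Without ES day 5 replicate 1 the counts were 8 lower and 0 higher in ENDM1-negative cells. In foregut they were then 4 lower and 5 higher. Mixl1, Eomes, Gsc, Lhx1 and Otx2 of this list are also in the primitive streak list, so the counts of these lists are not separate results. Foxa2, a pioneer factor that opens chromatin in endoderm, read 6.20, 5.97 and 5.96 in ENDM1-negative cells, 7.35, 7.20 and 7.33 in foregut and 8.20, 7.50 and 7.80 in ES day 5 cells. The ENDM1-negative arrays lay below both others, by 1.79 ± 0.15 against ES day 5 (adjusted p = 4.3e-06) and 1.25 ± 0.15 against foregut (adjusted p = 0.000261). Hhex, a homeobox factor of liver and thyroid buds, read 7.46, 7.15 and 7.92 in ENDM1-negative cells, 9.27, 9.28 and 8.97 in foregut and 10.67, 9.46 and 9.45 in ES day 5 cells, where replicate 1 was the highest. Gata6 and Gata4 fell by 1.51 ± 0.24 and 0.76 ± 0.16. Sox17, which starts the endoderm program, read 5.72, 5.92 and 5.78 in ENDM1-negative cells, 7.05, 6.62 and 6.66 in foregut and 7.90, 6.24 and 6.10 in ES day 5 cells. ES day 5 replicate 1 stood far above the others, and the difference of -0.94 ± 0.34 was not called.

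Receptors and secreted products of endoderm were lower in 9 of 13 cases and higher in 1, or 2 without ES day 5 replicate 1 (median -1.35), and 12 of them stood below foregut. Cer1, a secreted inhibitor of Nodal, BMP and Wnt, read 6.16, 5.58 and 5.33 in ENDM1-negative cells, 7.97, 7.47 and 6.97 in foregut and 10.58, 10.07 and 9.99 in ES day 5 cells, in 3 separate steps. Its difference from ES day 5 was -4.53 ± 0.26 in ENDM1-negative cells (adjusted p = 3.08e-07) and -2.75 ± 0.26 in foregut. Trh, a peptide hormone made by early foregut endoderm, had the smallest spread of the large falls, at 7.80, 7.78 and 7.84 in ENDM1-negative cells, 10.38, 10.37 and 10.32 in foregut and 11.47, 11.48 and 11.34 in ES day 5 cells (difference -3.62 ± 0.07, adjusted p = 8.54e-12). Spink1, a secreted trypsin inhibitor, read 9.23, 9.11 and 8.85 in ENDM1-negative cells, 11.86, 11.94 and 11.56 in foregut and 11.88, 11.27 and 11.39 in ES day 5 cells. Here foregut and ES day 5 arrays overlapped, and only the ENDM1-negative arrays were called lower, by 2.45 ± 0.17. Cxcr4, the Cxcl12 receptor, fell by 2.36 ± 0.23 in ENDM1-negative cells and by 1.33 ± 0.23 in foregut. Nepn, a leucine-rich protein of gut endoderm, was the exception: it read 8.37, 8.34 and 7.51 in ENDM1-negative cells, 9.53, 9.92 and 9.48 in foregut and 4.96, 4.63 and 4.47 in ES day 5 cells. It was above the array median in both embryo populations and below it in ES day 5 cells.

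Other differences from ES day 5 cells were found in foregut and were smaller, not called or of opposite direction in ENDM1-negative cells. Genes of the visceral endoderm, the outer yolk sac layer that secretes carriers and apolipoproteins, were higher in 15 of 18 cases in foregut (median 1.60) and in 2 in ENDM1-negative cells (median 0.17), or 4 without foregut replicate 2. In the direct comparison 14 were called lower in ENDM1-negative cells than in foregut. Ttr, the thyroid hormone carrier, read 7.87, 7.25 and 8.37 in ENDM1-negative cells, 11.51, 11.90 and 11.15 in foregut and 8.56, 7.49 and 7.51 in ES day 5 cells. ENDM1-negative and ES day 5 arrays overlapped, with a difference of -0.03 ± 0.31 that was not called, while ENDM1-negative cells lay 3.69 ± 0.31 below foregut (adjusted p = 1.56e-05). Afp, alpha-fetoprotein, read 4.97, 4.99 and 5.04 in ENDM1-negative cells, 7.96, 8.77 and 6.84 in foregut and 4.20, 4.16 and 4.17 in ES day 5 cells, and its difference of 0.82 ± 0.32 from ES day 5 was not called. Cubn, the cubilin receptor, differed from ES day 5 by 0.74 ± 0.52 in ENDM1-negative cells and 3.17 ± 0.52 in foregut, the first of which was not called. Regional foregut factors were higher in 6 of 15 cases in foregut and in 2 in ENDM1-negative cells, or 1 without ENDM1-negative replicate 1 and 3 without ES day 5 replicate 3. They were lower in 1 case in foregut, or 2 without ES day 5 replicate 1, and in 4 in ENDM1-negative cells. The shares in ENDM1-negative cells were 13.3% higher and 26.7% lower, beside 16.5% and 9.76% over all genes. Pax9, a paired box factor of the pharyngeal pouches, read 5.77, 5.56 and 5.32 in ENDM1-negative cells, 7.62, 7.18 and 7.45 in foregut and 5.24, 5.37 and 5.23 in ES day 5 cells, a difference of 0.27 ± 0.12 (not called) in ENDM1-negative cells and 2.14 ± 0.12 in foregut. Dpp4, a peptidase of epithelial surfaces, rose by 0.99 ± 0.24 in ENDM1-negative cells and by 4.03 ± 0.24 in foregut, a direct difference of -3.04 ± 0.24. Cpm, a carboxypeptidase, and Frzb, a secreted Wnt inhibitor, were lower than ES day 5 in ENDM1-negative cells, by 1.47 ± 0.29 and 1.69 ± 0.13, and stood above it in foregut, by 1.74 ± 0.29 and 0.52 ± 0.13. The Frzb call in foregut was lost without foregut replicate 3 (adjusted p = 0.0553).

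Pluripotency genes did not move one way. Of 24 measured, 10 were higher and 3 lower in ENDM1-negative cells, the second count being 5 without ES day 5 replicate 1 and 2 without ENDM1-negative replicate 2, and in foregut 3 were higher and 5 lower. Pou5f1, the core pluripotency factor Oct4, read 8.17, 7.19 and 8.35 in ENDM1-negative cells, 5.74, 5.28 and 5.93 in foregut and 7.72, 8.92 and 8.82 in ES day 5 cells. ENDM1-negative and ES day 5 arrays overlapped, with a difference of -0.59 ± 0.32 that was not called, and ENDM1-negative cells were 2.25 ± 0.32 above foregut (adjusted p = 0.00106). Nanog was lower than in ES day 5 cells by 1.73 ± 0.32 in ENDM1-negative cells and by 2.16 ± 0.32 in foregut. Dppa3, a germ cell and oocyte protein, read 6.92, 6.56 and 6.86 in ENDM1-negative cells, 5.05, 4.79 and 5.00 in foregut and 4.75, 5.25 and 5.32 in ES day 5 cells, a rise of 1.68 ± 0.14 (adjusted p = 5.01e-06). Dnmt3l, the partner of the de novo DNA methyltransferases, read 6.24, 6.90 and 5.96 in ENDM1-negative cells, 4.17, 4.12 and 4.61 in foregut and 4.15, 4.08 and 4.06 in ES day 5 cells. Among these 3 groups both genes were high in ENDM1-negative cells alone, but ES day 0 cells read 10.17, 10.21 and 10.08 for Dppa3 and 7.97, 8.13 and 8.18 for Dnmt3l, above the ENDM1-negative arrays. Zfp42 and Dppa4 rose by 1.32 ± 0.23 and 1.16 ± 0.16. Zfp42 still stood under the array median of 5.72 in ENDM1-negative cells, and it was above it in ES day 0 cells. Of 13 germline genes 4 were higher and 2 lower, with Tex19.1 at 1.18 ± 0.16 and the synaptonemal protein Sycp1 at -1.80 ± 0.14, while Ddx4, Dazl and Nanos3, which define germ cells, differed by 0.42 ± 0.16, 0.21 ± 0.23 and -0.03 ± 0.09 and were not called. Among 10 genes of DNA methylation 4 were higher, with Uhrf1 at 0.94 ± 0.10 beside Dnmt3l, and 2 lower, Zfp57 at -1.49 ± 0.09 and Tet2 at -0.99 ± 0.15. Lin28 genes and let-7 targets were higher in 3 of 7 cases, from 2 without ENDM1-negative replicate 1 to 5 without ENDM1-negative replicate 2, with Hmga2 at 0.56 ± 0.08.

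Signalling lists held calls in both directions. Of 9 Wnt targets 6 were higher and 1 lower (median 0.62), with 5 and 1 in foregut. Axin2, the feedback inhibitor that reports Wnt signalling, read 7.35, 7.37 and 7.26 in ENDM1-negative cells, 6.94, 6.86 and 6.76 in foregut and 6.04, 6.30 and 6.09 in ES day 5 cells, a difference of 1.18 ± 0.08 (adjusted p = 1.42e-06). Its 3 groups did not overlap. Lgr5, the receptor for R-spondin, went the other way at -1.55 ± 0.25. Wnt ligands and inhibitors were higher in 6 and lower in 5 of 24 cases, the inhibitors Dkk1 and Sfrp1 at -1.55 ± 0.19 and -1.24 ± 0.21 and the inhibitor Sfrp2 at 1.32 ± 0.21. In the BMP list 8 of 18 were higher and 1 lower. The ligand Bmp2 read 7.47, 7.39 and 7.52 in ENDM1-negative cells and 9.68, 9.09 and 9.27 in ES day 5 cells (difference -1.89 ± 0.15), while Bmp5 and the target genes Id2 and Msx2 differed by 1.59 ± 0.33, 1.45 ± 0.16 and 1.32 ± 0.09. FGF genes were higher in 8 and lower in 3 of 20 cases, with the receptor Fgfr2 at 0.83 ± 0.19 and the feedback inhibitor Il17rd at -1.12 ± 0.15. Of 16 retinoic acid genes 7 were higher and 2 lower, or 3 higher without ENDM1-negative replicate 1 and 4 without ES day 5 replicate 1. Crabp2, which hands retinoic acid to its nuclear receptors, read 11.37, 11.25 and 11.55 in ENDM1-negative cells, 10.57, 10.45 and 10.79 in foregut and 8.36, 8.93 and 9.28 in ES day 5 cells, the same order of groups as for Crabp1.

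Epithelial, mesenchymal and matrix lists held calls in both directions, some near the shares over all genes. Of 19 genes of junctions and keratins 3 were higher (15.8%) and 4 lower (21.1%) in ENDM1-negative cells, beside 16.5% and 9.76% over all genes. The first count was 9 without ES day 5 replicate 1 and 2 without ENDM1-negative replicate 1. Cldn4, a tight junction claudin, rose by 0.71 ± 0.09 and Krt19, a keratin of simple epithelia, fell by 1.01 ± 0.17. Mesenchymal genes gave 4 higher and 3 lower of 17, with 2 higher without ENDM1-negative replicate 1 and 1 lower without ENDM1-negative replicate 2 or 5 lower without ES day 5 replicate 1. Tgfb2, a growth factor of the TGF-beta family, read 6.45, 6.59 and 6.78 in ENDM1-negative cells, 8.44, 8.46 and 8.90 in foregut and 8.70, 8.46 and 8.39 in ES day 5 cells. Foregut and ES day 5 overlapped, and ENDM1-negative cells were lower than both, by 1.91 ± 0.15 against ES day 5. Cdh11, a cadherin of mesenchyme, rose by 1.23 ± 0.12. Fibroblast matrix genes were higher in 2 (11.8%) and lower in 2 (11.8%) of 17 cases, shares near those over all genes. The collagens Col1a1 and Col3a1 at 0.11 ± 0.08 and 0.08 ± 0.10 were not called. Basement membrane genes were higher in 9 and lower in 1 of 19 cases, with 11 higher in foregut. Lama1, an early laminin chain, rose by 0.85 ± 0.11, Nid1, a linker, by 0.76 ± 0.12 and Lama4, a laminin of vessels, by 0.57 ± 0.12. In the parietal endoderm list 4 of 11 were higher and 2 lower, or 1 lower without ENDM1-negative replicate 1 and 3 lower without ES day 5 replicate 3. This list shares Lama1, Lamb1, Col4a1 and Col4a2 with the basement membrane list and Snai1 with the mesenchymal list. The counts of these lists are therefore not separate results.

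Imprinted genes, of which either the maternal or the paternal copy is silent, moved both ways. Of 15 maternally expressed genes 4 were higher and 4 lower. Phlda2, a restraint on placental growth, read 9.96, 10.54 and 9.16 in ENDM1-negative cells, 9.17, 9.49 and 9.06 in foregut and 6.98, 6.66 and 7.07 in ES day 5 cells, a difference of 2.98 ± 0.26 (adjusted p = 5.14e-06). Both embryo populations were high. Of 21 paternally expressed genes 5 were higher, or 3 without ENDM1-negative replicate 3, and 5 lower. Slc38a4, an amino acid transporter, read 10.21, 10.54 and 10.15 in ENDM1-negative cells and 7.90, 7.58 and 7.54 in ES day 5 cells, while Zdbf2 and the zinc finger gene Peg3 differed by -1.30 ± 0.12 and -0.70 ± 0.08. Zdbf2 was also lower in foregut, by 1.58 ± 0.12, whereas Peg3 differed there by 0.12 ± 0.08 and was not called. Meg3 and Igf2 differed by -0.30 ± 0.12 and -0.27 ± 0.09. Meg3 was not called, and the Igf2 call was lost without ENDM1-negative replicate 1 (adjusted p = 0.103). Of 6 sex-linked genes 2 were higher and 2 lower. Xist, which silences an X chromosome in female cells, read 8.88, 9.14 and 9.09 in ENDM1-negative cells, 9.13, 9.57 and 9.27 in foregut and 4.69, 4.94 and 5.25 in ES day 5 cells. The Y-linked genes Eif2s3y and Uty were lower in ENDM1-negative cells by 1.49 ± 0.09 and 1.34 ± 0.10, and Kdm5d, also Y-linked, was higher by 2.84 ± 0.13. Foregut differed from ES day 5 alike, by -1.43 ± 0.09, -1.38 ± 0.10 and 3.08 ± 0.13. The part of sex in the differences of X-linked genes, such as Rhox9, Rhox6 and Mir363, was not tested.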

How the data were processed

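Gene expression was measured on Affymetrix Mouse Gene 1.0 ST arrays. The log2 values used are those the authors deposited, and the submitters' processing notes name RMA. Neither its version nor joint or separate processing of amplified and unamplified samples is given in the sources used here. The 35556 probe sets were named through the platform annotation: 21789 had 1 gene, 1621 had several and were left out, and 12146 were not listed there. Of the first, 21698 matched a RefSeq gene ID. For 999 genes with more than 1 probe set the one with the highest mean was kept, which gave 19938 genes. No further normalization was applied. Array number, not read depth, limits the precision. The p-values rest on the spread between the 3 samples within each of the 4 amplified groups, pooled and moderated over all genes.

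Group means were fitted over the 12 amplified arrays (4 groups of 3, ES cells before differentiation included) with limma 3.58.1 in R 4.3.3, with 8 residual degrees of freedom, and p-values from the two-sided moderated test were adjusted by Benjamini-Hochberg over all genes. A gene was called at an adjusted p under 0.05, and each value after ± beside a difference is its standard error. Differences are ENDM1-negative minus ES day 5, foregut minus ES day 5 and ENDM1-negative minus foregut. The first pair share the ES day 5 arrays. The 18 unamplified arrays entered an alternative fit only. The fit was tested on simulated data. Alternatives changed the arrays in the fit, the scaling, the filter on dim genes, the probe set per gene, the spread model, the threshold and the replicate block, and left out each array in turn.

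Members and gene lists were chosen with earlier results of these data known. Genes were named by rule: the 12 largest rises and 12 largest falls with arrays that did not overlap, leaving out provisional symbols, per list the 3 called genes with the largest rise and the 3 with the largest fall, the 6 largest differences from foregut each way among genes called in both comparisons, 6 rises and 6 falls with an interval against foregut between -0.5 and 0.5, all Hox, sorting and sex-linked genes, and 11 endoderm, pluripotency and imprinted genes. Other genes of a list that define a cell type or family were added after values were seen. Same-numbered replicates of ENDM1-negative and ES day 5 cells did not deviate together (correlations -0.035, -0.035 and 0.027), so no pairing was used. Same-numbered replicates of ENDM1-negative and foregut cells were not checked in this way, and whether they came from the same embryos is not known here. The direct comparison was therefore also unpaired. It gave 1471 calls with the replicate number as a block, in place of 1623. Promoter and microRNA sequences were read from RefSeq tables (GRCm38.p6).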

Additional observations from a re-analysis of the deposited data

Results flagged for a closer look

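For 9 of the named genes ENDM1-negative and foregut cells differed from ES day 5 cells in opposite directions, and the ENDM1-negative minus foregut difference was called by limma's moderated test (values on the log2 scale, 3 arrays per group, adjusted over all genes). These genes were not weighed further, and each difference shares the ENDM1-negative arrays with the comparison to ES day 5.

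Lower than ES day 5 in ENDM1-negative cells and higher in foregut were 8 of them. Pyy, a gut hormone, differed between the embryo populations by -3.33 (adjusted p = 0.000545), with -1.35 ± 0.44 against ES day 5 in ENDM1-negative cells and 1.98 ± 0.44 in foregut. The ENDM1-negative call was lost without ENDM1-negative replicate 2 (adjusted p = 0.132), without ENDM1-negative replicate 3 (0.0861) and with ES day 5 replicate 1 left out (0.067), where the value was -0.68. Cpm differed by -3.20 (adjusted p = 3.11e-05), Clic6, a chloride channel protein, by -3.09 (adjusted p = 8.22e-05) and Rbp4, the retinol carrier of blood, by -2.85 (adjusted p = 7.61e-05). Against ES day 5 Clic6 was at -2.01 ± 0.32 in ENDM1-negative cells and 1.08 ± 0.32 in foregut, where leaving out ES day 5 replicate 3 ended the foregut call (adjusted p = 0.101), and Rbp4 at -1.17 ± 0.29 and 1.68 ± 0.29. Frzb differed by -2.21 (adjusted p = 1.45e-06). Zim1, an imprinted zinc finger gene, differed by -2.06 (adjusted p = 8.17e-06), with -1.20 ± 0.16 in ENDM1-negative cells and 0.86 ± 0.16 in foregut. Smaller gaps were found for Krt8, a keratin of simple epithelia, at -0.91 (adjusted p = 0.000198) and for Sparc, a matrix glycoprotein, at -0.91 (adjusted p = 0.000412). The Sparc difference from ES day 5 of -0.34 ± 0.12 in ENDM1-negative cells was no longer called in 14 alternatives, among them each one that left out a single ENDM1-negative, foregut or ES day 0 array, and was -0.18 with ES day 5 replicate 1 left out (adjusted p = 0.126). The Krt8 difference of 0.32 ± 0.10 in foregut was no longer called when ES day 5 replicate 2 was left out (adjusted p = 0.152).

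Fabp3, a fatty acid carrier, went the other way, with a difference of 3.32 between the embryo populations (adjusted p = 0.000242). It averaged 9.51 ± 0.60 in ENDM1-negative cells, 6.19 ± 0.15 in foregut and 7.61 ± 1.01 in ES day 5 cells (SD, n = 3 each). Leaving out ES day 5 replicate 3 ended the call of the foregut difference of -1.42 ± 0.39 (adjusted p = 0.079). Groups of 3 arrays were not tested for single outlying arrays.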

How the results depend on the processing

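Of 244 named genes 223 were called, and 190 of these kept the call under each alternative that tested them, other than the least difference of 1. Leaving out genes under the median level tested 154 of the 223. Against ES day 5, calls in ENDM1-negative cells numbered 5236 and ranged from 4208 (without ES day 5 replicate 3) to 5185 when 1 array was left out, calls in foregut, 4817, from 3381 to 4928, and calls between the embryo populations, 1623, from 985 to 2060. By direction, the last ranged from 502 to 1111 higher (567 without ENDM1-negative replicate 3, 558 without ENDM1-negative replicate 1) and from 483 to 949 lower, the lowest of each without foregut replicate 1. A least log2 difference of 1 left 131 calls for ENDM1-negative cells (66 higher, 65 lower, 131 at least 2-fold), 118 for foregut (55 and 63) and 44 between them (20 and 24), and 157 named genes lost their call. With all 30 arrays in the fit the calls between the embryo populations were 2467, 1476 of them higher. With arrays shifted to the same median, 1942 genes were higher in foregut. Leaving out genes under the median level left 427 calls of at least 2-fold. Kit changed sign without ES day 5 replicate 1, to 0.39 (adjusted p = 0.0278) in place of -0.10, and ranged from -0.42 to 0.39 when 1 array was left out. With the replicate number as a block (replicate block) the calls were 5070, 4554 and 1471, and 4 named genes lost their call while 1 gained it. The cause was not tested. Strain, RNA kit and sorting gate have no alternative in these arrays.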

Other observations

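Further signalling and metabolic lists gave small counts in ENDM1-negative against ES day 5 cells. Among 15 Hippo genes 5 were higher, or 3 without ENDM1-negative replicate 3, and 2 lower. Amot, the scaffold that holds Yap1 out of the nucleus, read 7.16, 6.84 and 7.44 in ENDM1-negative cells, 8.85, 8.85 and 8.85 in foregut and 10.45, 9.50 and 9.42 in ES day 5 cells. It was lowest in ENDM1-negative cells, by 2.64 ± 0.24 against ES day 5 (limma adjusted p = 8.15e-06), while Tead4, a DNA-binding partner of Yap1, was 0.67 ± 0.15 higher. Of 12 hedgehog genes 3 were higher, with the transcription factors Gli3 at 1.60 ± 0.21 and Gli2 at 0.81 ± 0.16, and the receptor Ptch1 at -0.84 ± 0.21 was the single fall, with 2 lower without ENDM1-negative replicate 1. Of 17 Notch genes 3 were higher (1 without ENDM1-negative replicate 1) and 1 lower (0 without ENDM1-negative replicate 2 or ES day 5 replicate 3, 2 without ES day 5 replicate 1), shares of 17.6% and 5.88% beside 16.5% and 9.76% over all genes, led by the feedback inhibitor Nrarp at 0.84 ± 0.12. Ephrin genes, which steer cell boundaries, were higher in 5 of 17 cases, such as Epha4 at 0.97 ± 0.13, and Epha7 was lower at -1.31 ± 0.13.

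Genes of glycolysis and hypoxia were higher in 6 of 21 cases, with the phosphofructokinase Pfkl at 0.63 ± 0.11 and lactate dehydrogenase Ldha at 0.27 ± 0.07. Vegfa, the ligand of Kdr and Flt1, was lower at -0.57 ± 0.09 in ENDM1-negative cells and differed by 0.19 ± 0.09 in foregut. Genes of the amino acid response split into 4 higher and 5 lower of 18, or 3 lower without ENDM1-negative replicate 1. Asns, asparagine synthetase, fell by 1.01 ± 0.08 in ENDM1-negative cells and by 1.28 ± 0.08 in foregut. The cystine transporter Slc7a11 rose by 1.14 ± 0.26, and the arginine transporter Slc7a3 fell by 0.84 ± 0.19.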
